A study of Mus musculus with 18 samples.

Results

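The genes described here are 9 mouse genes that are known targets of glucocorticoid hormone or members of the metallothionein family, followed across the 6 groups of an irradiation experiment on whole bone marrow. They were chosen by name, as Fkbp5, Tsc22d3, Zbtb16, Klf9, Sgk1, Dusp1, Ddit4, Mt1 and Mt2. This choice, and that of the gene lists below, was made with earlier results of these data known. Of the 9, 8 have a probe whose RefSeq accession could be matched to their symbol, and all 8 were bright enough to be tested among 11884 tested genes. Zbtb16 was not analysed here.

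Marrow came from female C3H mice of 8 weeks or 1 week of age, with 3 mice and 3 arrays in each group. At each age the groups were marrow collected 6 h after 2 Gy of gamma rays, marrow collected 24 h after 2 Gy, and marrow of mice left unirradiated (0 Gy). RNA of each sample was labelled with Cy3 and hybridised alone to an Agilent mouse array. The study set the radiation response of young marrow beside that of adult marrow. Levels below are log2 spot signals relative to the 75th percentile of the same array, so that a level of 0 lies at that percentile. A difference is given on the log2 scale with its standard error, for 3 arrays in each group. All differences come from 1 limma fit over all 18 arrays, and p-values are adjusted by Benjamini and Hochberg over the 11884 genes. A gene was called where its adjusted p was under 0.05. Levels of different genes come from different probes and were not set against each other.

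As background, glucocorticoids (corticosterone in the mouse) act through the glucocorticoid receptor, the product of Nr3c1, which is held ready by Hsp90 chaperones and on binding hormone enters the nucleus and switches on target genes. Fkbp5, Tsc22d3, Zbtb16, Klf9, Sgk1, Dusp1 and Ddit4 are among the targets used most often as readouts of that activity in many tissues. Metallothioneins are small cysteine-rich proteins that bind zinc and other metals. Mt1 and Mt2 are induced by zinc through the transcription factor Mtf1 and also by glucocorticoids and inflammation. In marrow, glucocorticoids are known for depleting lymphoid precursors and for raising the number of circulating neutrophils.

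The letters around the gene starts show which members carry the elements named for these regulators. RefSeq windows on GRCm38.p6, from 250 bases before to 50 bases after each annotated start, were found for 8 members, in 15 windows. They were searched on both strands for the metal response element core (TGCACNC or TGCGCNC), the glucocorticoid response element (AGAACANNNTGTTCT) and the glucocorticoid receptor half-site (TGTTCT), which is part of the full element. The 3 stretches below are shown because Mt1 and Mt2 hold the most metal element cores and Sgk1 the only full glucocorticoid element. Each is 250 bases long on the plus strand and ends just before the start, and capitals mark the matches.
Mt2 (chr8:94172368-94172617), metal element cores in capitals: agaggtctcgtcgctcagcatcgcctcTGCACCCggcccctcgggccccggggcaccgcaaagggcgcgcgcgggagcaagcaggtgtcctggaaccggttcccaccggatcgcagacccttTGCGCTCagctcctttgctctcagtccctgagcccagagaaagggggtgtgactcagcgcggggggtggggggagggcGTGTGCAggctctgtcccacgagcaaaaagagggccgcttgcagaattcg
Mt1 (chr8:94178839-94179088), metal element core in capitals: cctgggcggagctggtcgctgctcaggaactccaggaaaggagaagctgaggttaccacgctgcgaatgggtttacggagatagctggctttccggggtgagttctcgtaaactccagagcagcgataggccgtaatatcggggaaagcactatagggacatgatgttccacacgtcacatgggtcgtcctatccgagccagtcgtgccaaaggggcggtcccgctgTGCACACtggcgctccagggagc
Sgk1 (chr10:21993640-21993889), glucocorticoid response element in capitals: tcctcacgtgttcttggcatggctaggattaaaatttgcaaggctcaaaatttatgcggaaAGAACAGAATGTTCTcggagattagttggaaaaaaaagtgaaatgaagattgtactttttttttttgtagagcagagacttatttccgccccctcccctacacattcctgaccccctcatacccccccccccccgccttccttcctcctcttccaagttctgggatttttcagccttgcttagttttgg

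In the Mt2 stretch the cores began 223, 128 and 50 bases before the start, and the full window of 300 bases held 4. In the Mt1 stretch 1 core began 23 bases before the start, and its full window held 3. At least 3 cores were found in 1.97% of 32851 RefSeq windows of the same length, and at least 1 in 25.7%. Ddit4, Dusp1 and 1 of 6 Sgk1 windows held 1 core each. The full glucocorticoid element lay 189 to 175 bases before the start in 1 of 6 Sgk1 windows, and only 3 of the 32851 windows (0.00913%) held it. The half-site was found in 19.0% of windows. Among the members it was found in 3 Sgk1 windows and in 1 of 3 Tsc22d3 windows. A match describes letters only, and elements outside these windows were not searched.

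Across the arrays, 21020 to 25566 of 41174 probes were well above background. Replicates of a group correlated at r of 0.992 or more, apart from 1-week control replicate 2, whose lowest r with another 1-week control was 0.978. On that array the summed signal of 8 skeletal muscle markers (in units of the array's 75th percentile) was 646.5, against 5.632 and 10.46 on the other 1-week controls, so the comparisons that use 1-week controls were also computed without it, and the member calls that changed are given below. Without it, 5 members were higher and 2 lower for age, 3 rose and 2 fell at 6 h in 1-week marrow, and 2 rose at 24 h. Of all genes 61.8%, 47.8% and 34.2% were then called in these comparisons, in either direction. Arrays lay on 5 slides. In whole marrow, fewer cells of a type and less RNA per cell cannot be told apart. Marrow markers were present at both ages: the 11 B-cell precursor markers summed to 367 to 398.7 on 8-week and 334.3 to 376.4 on 1-week control arrays. The corresponding sums for 12 late neutrophil markers were 2066 to 2228 and, at 1 week, 1194 to 1381. The comparisons with 0 Gy marrow share the same control arrays within an age, and the age comparison uses both sets, so they are not independent of each other. The 10 p53 target genes served as a check on irradiation: all 10 rose at 6 h at both ages. Of all genes 23.9% rose at 6 h at 8 weeks and 25.5% at 1 week. The p53 target sums were 142.8 to 161.6 at 8 weeks and 148.5 to 169.3 at 1 week. On the controls of the same ages they were 37.64 to 38.68 and 32.63 to 33.77.

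In unirradiated marrow 5 of the 6 measured glucocorticoid-induced genes were higher at 8 weeks than at 1 week, and both metallothioneins were lower. Marrow of 8 weeks carried about 3 times the Tsc22d3 signal of 1-week marrow (2.971-fold) and more Fkbp5, Klf9, Sgk1 and Ddit4, but less Mt1 (0.3922 of the 1-week level) and less Mt2 (0.2763). Dusp1 did not pass. Of the 8 members, 5 were called higher and 2 lower, where 27.4% of all tested genes were called higher and 37.5% lower (64.9% in either direction). Arrays of the groups did not overlap for 8 of 8 members, against 69.9% of all genes. The members' median difference was 0.57 and that of all genes -0.09. The 7 members called were also called without 1-week control replicate 2, with differences of 0.43 for Sgk1, 0.69 for Ddit4, -1.36 for Mt1 and -1.86 for Mt2, and the others below.

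**Figure D1:**
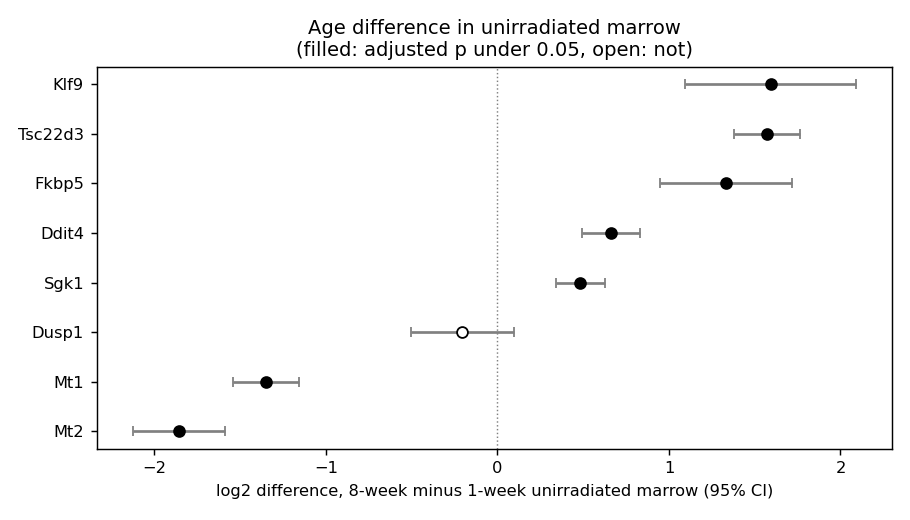
Log2 difference between 8-week and 1-week unirradiated marrow for each of the 8 measured genes, with 95% confidence intervals from the fit (n = 3 arrays per age); filled points have an adjusted p under 0.05. Tsc22d3, Klf9 and Fkbp5 lie between 1.33 and 1.59 and Mt1 and Mt2 at -1.35 and -1.86.

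Fkbp5 encodes an Hsp90 co-chaperone that lowers the hormone affinity of the glucocorticoid receptor, and as a receptor target it forms a feedback loop. Its level was 1.09, 0.38 and 0.44 on the 8-week control arrays, against -0.42, -1.07 and -0.60 on the 1-week controls. Every 8-week control lay above every 1-week control. The difference was 1.33 ± 0.18 (2.52-fold, adjusted p = 7.475e-06), and without 1-week control replicate 2 it was 1.15 ± 0.18 (adjusted p = 3.686e-05). On slide 3, which holds an array of each control group, the difference was 1.69.

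After irradiation of 8-week marrow, Fkbp5 stood at 0.18, 0.57 and 0.30 at 6 h and at -0.53, -0.65 and -0.76 at 24 h. The 24 h arrays all lay below the 6 h and the control arrays, in the range of the 1-week groups. Against 8-week controls the 6 h difference was -0.29 ± 0.18 (adjusted p = 0.2069), which did not pass. At 24 h Fkbp5 fell by 1.28 ± 0.18 on the log2 scale, to 0.4125 of the control level (adjusted p = 1.825e-05), and by 0.99 against 6 h (adjusted p = 0.0002628). On slide 5 the 24 h difference from control was -1.19.

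In 1-week marrow, Fkbp5 was -0.24, -0.37 and -0.29 at 6 h and -0.39, -0.58 and -0.85 at 24 h. The difference from 1-week controls was 0.40 ± 0.18 at 6 h (adjusted p = 0.07685) and 0.09 ± 0.18 at 24 h (adjusted p = 0.7311). Neither passed. With slide as a block the 6 h difference was 0.61 (adjusted p = 0.01548), and without 1-week control replicate 2 it was 0.21 (adjusted p = 0.3436). The 24 h responses of the ages differed by -1.37 ± 0.26, 8 weeks minus 1 week (adjusted p = 0.000561), and by -1.18 without 1-week control replicate 2 (adjusted p = 0.001097).

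These Fkbp5 values come from the brightest of 3 probes, and the others did not show the fall at 24 h. In 8-week marrow at 24 h the second probe gave -0.07 ± 0.12 (adjusted p = 0.6519) and the third, dimmest probe 0.14 ± 0.26 (adjusted p = 0.6743). The age difference in controls was 0.57 ± 0.12 on the second probe (adjusted p = 0.0004507) and 0.29 ± 0.26 on the third (adjusted p = 0.3543), in the same direction on all 3. At 6 h in 1-week marrow the second probe was lower by 0.39 than controls (adjusted p = 0.01079), opposite in sign to the brightest probe, and at 6 h in 8-week marrow it passed at -0.31 ± 0.12 (adjusted p = 0.04099). All 3 probes are annotated to the same transcript accession. The fall of Fkbp5 at 24 h in 8-week marrow therefore rests on 1 probe.

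Tsc22d3, on the X chromosome, encodes GILZ, a leucine zipper protein that mediates anti-inflammatory effects of glucocorticoids and is abundant in lymphocytes. Its level was 3.38, 3.21 and 3.09 on the 8-week control arrays, against 1.72, 1.75 and 1.51 on the 1-week controls. The lowest 8-week array lay more than 1 log2 unit above the highest 1-week array. The difference was 1.57 ± 0.09 (adjusted p = 5.926e-10), 1.61 ± 0.10 without 1-week control replicate 2, and 1.30 ± 0.10 on the other Tsc22d3 probe (adjusted p = 1.123e-08). On slide 3 it was 1.87.

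Irradiated 8-week marrow had Tsc22d3 levels of 3.02, 2.995 and 2.89 at 6 h and of 2.80, 2.83 and 2.55 at 24 h. All 6 irradiated arrays lay below the 3 controls. At 24 h Tsc22d3 fell by 0.50 ± 0.09 (0.7057-fold, adjusted p = 0.000209), and the other probe gave -0.32 ± 0.10 (adjusted p = 0.01091). On slide 5 the difference was -0.55. The 6 h difference was smaller, at -0.26 ± 0.09 (adjusted p = 0.0281). It did not pass on the other probe (-0.07 ± 0.10, adjusted p = 0.5804), nor after leaving out 8-week control replicate 1 (-0.19, adjusted p = 0.1422), control replicate 2 (adjusted p = 0.05402), 6 h replicate 2 (adjusted p = 0.05174) or 6 h replicate 3 (adjusted p = 0.09099).

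In 1-week marrow Tsc22d3 was 1.83, 1.99 and 1.74 at 6 h and 1.44, 1.43 and 1.53 at 24 h. The differences from controls were 0.19 ± 0.09 (adjusted p = 0.08939) and -0.20 ± 0.09 (adjusted p = 0.1107), and neither passed. The 6 h difference passed on the other probe at 0.34 ± 0.10 (adjusted p = 0.009118), with slide as a block at 0.25 (adjusted p = 0.02093) and with the replicate number as a block (adjusted p = 0.04325). The 24 h arrays lay below all 6 h arrays, by 0.39 ± 0.09 (adjusted p = 0.00352). The 6 h responses differed by -0.45 ± 0.13, 8 weeks minus 1 week (adjusted p = 0.02371), a call that did not pass on the other probe (-0.41, adjusted p = 0.05174) or without 1-week control replicate 3 (adjusted p = 0.05524), 1-week 6 h replicate 2 (adjusted p = 0.0574) or 8-week control replicate 1 (adjusted p = 0.06567). The 24 h responses differed by -0.31 ± 0.13, which did not pass (adjusted p = 0.06721). That difference passed in 7 of 32 alternatives. Among them were the other probe (-0.37, adjusted p = 0.04392), slide as a block (-0.33, adjusted p = 0.03922) and quantile normalisation (-0.41, adjusted p = 0.03067).

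Of 11 T-cell and NK-cell markers, 8 were higher and 1 lower in 8-week than in 1-week controls (27.4% and 37.5% of all genes). Their summed signal was 30.94 to 33.25, 37.72 to 44.29 and 42.27 to 45.82 at 0, 6 and 24 h in 8-week marrow. Against controls of that age, 7 of the 11 rose and 1 fell at 6 h (23.9% and 22.1% of all genes). At 24 h 5 rose and 2 fell, near the shares of all genes (38.3% and 19.5%). The median there was -0.08, beside 0.12 over all genes. Between 6 h and 24 h at 8 weeks 1 was higher and 5 lower at 24 h (33% and 16.5% of all genes). The sum and the single markers thus did not move together there. In 1-week marrow the sum was 17 to 19.79, 20.14 to 23.64 and 18.92 to 20.41 at the same times. B-cell precursor markers fell at 24 h for 11 of 11 genes in 8-week marrow, to a sum of 99.69 to 109.6, and for 10 of 11 in 1-week marrow, to 93.56 to 102.3. Of all genes 19.5% fell at 24 h at 8 weeks and 17.6% at 1 week. The part of these cells in the Tsc22d3 values was not tested.

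Klf9, a zinc-finger repressor induced by glucocorticoids and thyroid hormone, was dim. Its brighter probe was well above background on 3 of 3 arrays in each 8-week group and in the 1-week 24 h group, and on 2 of 3 in the 1-week control and 6 h groups. The level was -2.74 to -2.34 on 8-week controls, against -4.64 to -3.58 on 1-week controls, a difference of 1.59 ± 0.24 (adjusted p = 1.929e-05) and of 1.88 ± 0.21 without 1-week control replicate 2. On its dimmer second probe the same difference was 0.12 ± 0.23 (adjusted p = 0.672).

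After irradiation Klf9 ran the other way at the 2 ages on its brighter probe, without passing against controls at either. At 8 weeks it was -0.33 ± 0.24 at 6 h (adjusted p = 0.2727) and -0.53 ± 0.24 at 24 h (adjusted p = 0.06347). At 1 week it was 0.45 ± 0.24 (adjusted p = 0.1248) and 0.59 ± 0.24 (adjusted p = 0.06319). The second probe gave 0.001 at 6 h and -0.13 at 24 h at 8 weeks, and 0.54 and -0.32 at 1 week. None of these passed, and at 24 h that probe was lower than controls at both ages. The difference between the 24 h responses passed at -1.12 ± 0.33 (adjusted p = 0.0136), while the second probe gave 0.19 ± 0.33 (adjusted p = 0.6768). Leaving out 1-week control replicate 2, the highest of the 1-week controls for Klf9, made the 1-week differences 0.73 (adjusted p = 0.01035) and 0.88 (adjusted p = 0.005197), and the 8-week 24 h difference then passed too (adjusted p = 0.02574), as did the difference between the 6 h responses (-1.06, adjusted p = 0.02153).

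**Figure D2:**
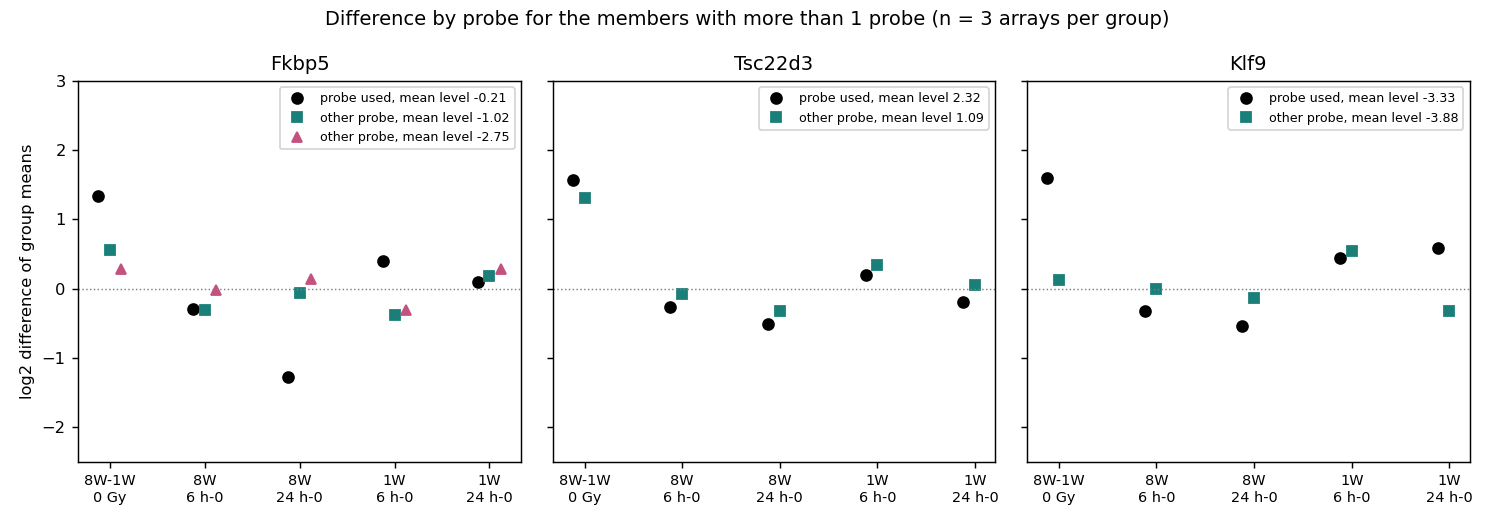
Log2 difference between group means on every probe of Fkbp5, Tsc22d3 and Klf9, the members with more than 1 probe (n = 3 arrays per group; 8W and 1W are 8 and 1 weeks). The Tsc22d3 probes lie close for age (1.57 and 1.30) and apart at 6 h in 8-week marrow (-0.26 and -0.07), whereas the Fkbp5 probes part at 24 h in 8-week marrow (-1.28, -0.07 and 0.14).

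Sgk1 encodes a kinase that regulates ion channels and cell survival, and Dusp1 a phosphatase that switches off MAP kinases. Sgk1 levels were 2.52 to 2.67 on 8-week controls, against 1.99 to 2.16 on 1-week controls. The groups did not overlap, and the difference was 0.48 ± 0.07 (1.398-fold, adjusted p = 9.35e-06). After irradiation the differences were small. At 8 weeks the difference from controls was 0.06 ± 0.07 at 6 h (adjusted p = 0.5294) and 0.17 ± 0.07 at 24 h (adjusted p = 0.0406). The 24 h call was lost without any 1 of 4 arrays (8-week control replicates 1 and 3, and 24 h replicates 1 and 2, with adjusted p = 0.1454, 0.1, 0.1146 and 0.1196), with slide as a block (0.14, adjusted p = 0.09874) and with quantile normalisation (0.08, adjusted p = 0.3485). At 1 week it was -0.15 ± 0.07 at 6 h (adjusted p = 0.06377) and -0.07 ± 0.07 at 24 h (adjusted p = 0.4655). Leaving out 1-week control replicate 2 made the 6 h value -0.21 (adjusted p = 0.02338) and the difference between the 24 h responses 0.29 (adjusted p = 0.02394), in place of 0.24 (adjusted p = 0.05493).

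Dusp1 was the 1 measured member whose controls did not pass between ages, at -0.20 ± 0.14 (adjusted p = 0.2205). It was called against controls at 6 h at 1 week and at 24 h at 8 weeks. In 1-week marrow Dusp1 was 1.55, 1.59 and 1.65 at 0 h, 2.24, 2.22 and 2.05 at 6 h, and 1.86, 1.93 and 1.79 at 24 h. The 6 h arrays lay above all others, and the rise was 0.57 ± 0.14 (1.488-fold, adjusted p = 0.003005). At 24 h the difference was 0.26 ± 0.14 (adjusted p = 0.1656).

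In 8-week marrow Dusp1 was 1.26, 1.52 and 1.39 at 0 h, 1.17, 1.58 and 1.50 at 6 h, and 1.96, 2.33 and 1.56 at 24 h. The 24 h arrays spread widely, and the lowest of them lay within the range of the 6 h arrays. The difference was 0.02 ± 0.14 at 6 h (adjusted p = 0.9086) and 0.56 ± 0.14 at 24 h (1.471-fold, adjusted p = 0.003196). On slide 5, with an array of each group, the 24 h difference was 0.17, and without 24 h replicate 2 it was 0.37 (adjusted p = 0.02172). The 6 h responses differed between ages by -0.55 ± 0.20, which did not pass (adjusted p = 0.0685), and with slide as a block it was -0.81 (adjusted p = 0.02882). The 24 h responses differed by 0.29 ± 0.20, which did not pass either (adjusted p = 0.2583), and by 0.49 without 8-week 24 h replicate 3 (adjusted p = 0.02673). From 6 h to 24 h Dusp1 rose by 0.53 ± 0.14 at 8 weeks (adjusted p = 0.005179). At 1 week that step was -0.31 ± 0.14, which did not pass (adjusted p = 0.1008), and -0.48 with slide as a block (adjusted p = 0.01504). Whether the step from 6 h to 24 h differed between the ages was not tested.

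Ddit4 (REDD1) inhibits the growth-promoting kinase complex mTORC1, and is induced by glucocorticoids, by low oxygen and by p53 after DNA damage. It rose at 6 h at both ages, more at 1 week than at 8 weeks, and was still raised at 24 h. In 8-week marrow Ddit4 was 3.59, 3.58 and 3.68 at 0 h, 4.60, 4.55 and 4.51 at 6 h, and 3.86, 3.92 and 3.88 at 24 h. The 3 times did not overlap. The difference from controls was 0.94 ± 0.08 at 6 h (1.919-fold, adjusted p = 1.982e-07) and 0.27 ± 0.08 at 24 h (1.207-fold, adjusted p = 0.00778). Within a slide the differences were 0.93 at 6 h (slide 3) and 0.20 at 24 h (slide 5). The 24 h call was lost with quantile normalisation (0.14, adjusted p = 0.1535) and with normexp background correction (0.11, adjusted p = 0.3297).

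In 1-week marrow Ddit4 was 3.02, 3.01 and 2.83 at 0 h, 4.41, 4.31 and 4.31 at 6 h, and 3.56, 3.15 and 3.37 at 24 h. Here too the times did not overlap. It rose by 1.39 ± 0.08 at 6 h (2.618-fold, adjusted p = 1.894e-09) and by 0.40 ± 0.08 at 24 h (1.324-fold, adjusted p = 0.000828). On slide 1 the 6 h difference was 1.38, and the 24 h difference was 0.55 on slide 2 and 0.32 on slide 3. The 6 h responses differed by -0.45 ± 0.11, 8 weeks minus 1 week (adjusted p = 0.01235), while the 24 h responses differed by -0.13 ± 0.11 (adjusted p = 0.3658). The control levels differed as well, with 8-week controls above 1-week controls by 0.66 ± 0.08 (1.581-fold, adjusted p = 2.045e-06). At 6 h the levels at the ages lay close, at 4.56 ± 0.05 at 8 weeks and 4.34 ± 0.05 at 1 week (SD, n = 3 each). The genes whose levels over the 18 arrays were most like Ddit4 were Trp53inp1, a p53 target (Pearson r = 0.96), Cd55 (0.95) and Mdm4 (0.937).

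**Figure D3:**
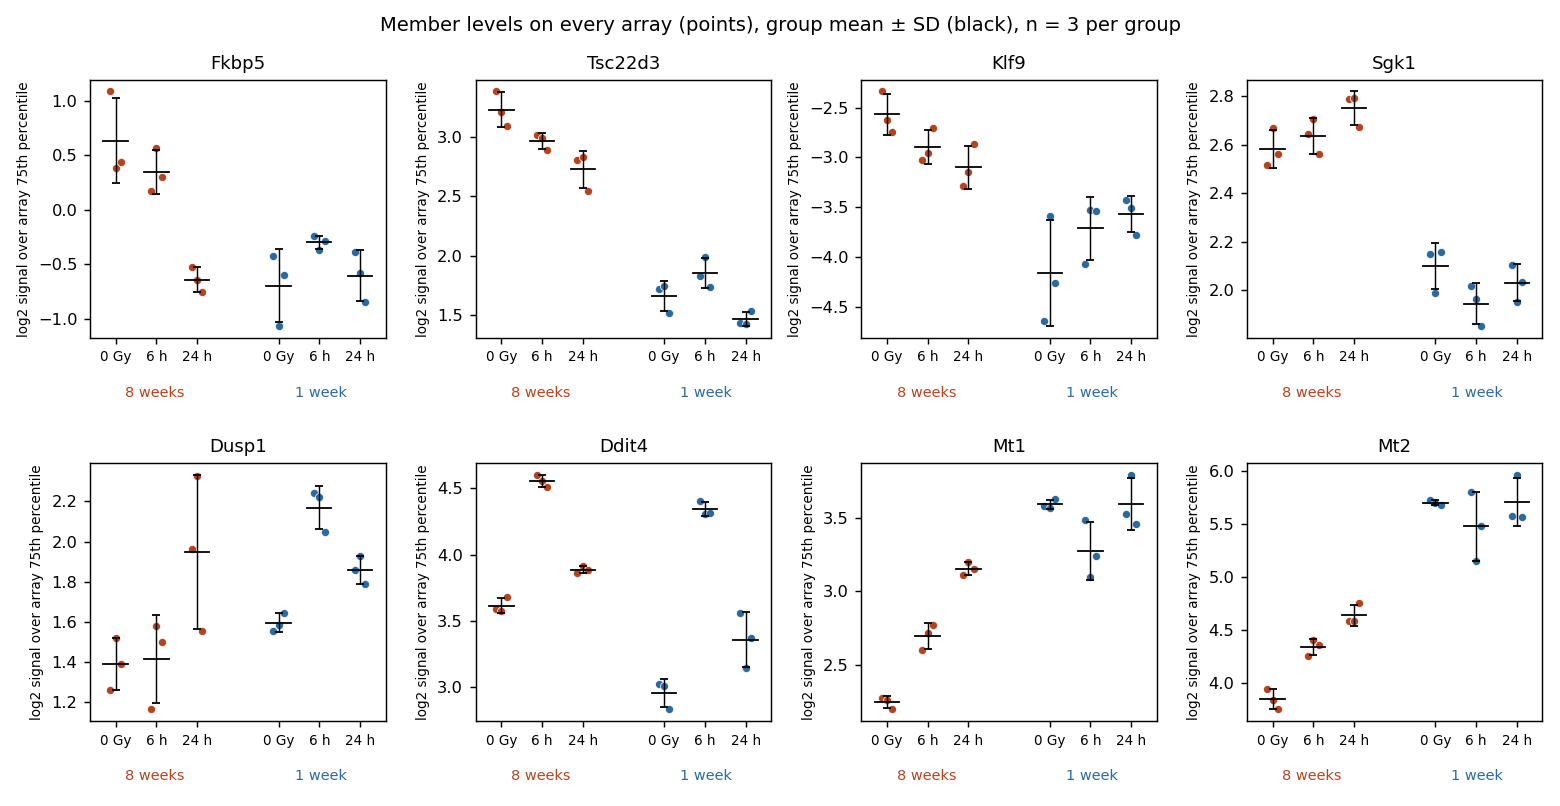
Log2 level of each of the 8 measured genes on every array, relative to the array's 75th percentile, by group (8W and 1W are 8 and 1 weeks of age; 0 Gy, 6 h and 24 h after 2 Gy); points are arrays and black marks the group mean ± SD, n = 3. Mt1 and Mt2 of 8-week marrow climb with time from below the 1-week levels, and Ddit4 peaks at 6 h at both ages.

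Mt1 and Mt2 were high in 1-week marrow whatever the treatment, and in 8-week marrow they started low and rose after irradiation. Mt2 was 3.95, 3.84 and 3.76 on the 8-week controls, against 5.73, 5.70 and 5.69 on the 1-week controls. Mt1 was 2.28, 2.26 and 2.20 on the 8-week controls, against 3.58, 3.57 and 3.63 on the 1-week controls. The age groups lay far apart for both genes and replicates lay within 0.2 of each other. The difference was -1.86 ± 0.13 for Mt2 (adjusted p = 3.934e-09) and -1.35 ± 0.09 for Mt1 (adjusted p = 2.749e-09). On slide 3 it was -1.74 for Mt2 and -1.35 for Mt1.

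Both metallothioneins rose in irradiated 8-week marrow. Mt2 reached 4.26, 4.41 and 4.37 at 6 h and 4.59, 4.58 and 4.76 at 24 h. Mt1 reached 2.60, 2.72 and 2.77 at 6 h and 3.11, 3.20 and 3.15 at 24 h. The arrays of the 3 times did not overlap for either gene. At 6 h Mt1 rose by 0.45 ± 0.09 (1.366-fold, adjusted p = 0.0007915) and Mt2 by 0.50 ± 0.13 (1.409-fold, adjusted p = 0.004922). At 24 h Mt1 rose by 0.91 ± 0.09 (1.879-fold, adjusted p = 3.638e-07) and Mt2 by 0.79 ± 0.13 (1.734-fold, adjusted p = 6.199e-05). These 4 calls held under all 31 alternatives run on each. Within 1 slide the differences were 0.49 for Mt1 and 0.42 for Mt2 at 6 h (slide 3) and 0.95 and 0.999 at 24 h (slide 5). From 6 h to 24 h the further difference was 0.46 ± 0.09 for Mt1 (adjusted p = 0.0004543) and 0.30 ± 0.13 for Mt2 (adjusted p = 0.06203). At 24 h the means at 8 weeks, 3.15 for Mt1 and 4.64 for Mt2, were still below the 1-week means at the same time, 3.59 and 5.71.

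In 1-week marrow neither gene was called higher after irradiation. Mt2 was 5.81, 5.15 and 5.49 at 6 h and 5.58, 5.97 and 5.57 at 24 h, and Mt1 was 3.49, 3.10 and 3.24 at 6 h and 3.53, 3.80 and 3.46 at 24 h. The irradiated arrays spread more than the controls, and at 24 h they lay on both sides of them. For Mt1 the difference from controls was -0.32 ± 0.09 at 6 h (adjusted p = 0.007164) and 0.00 ± 0.09 at 24 h (95% interval -0.19 to 0.19). The 6 h call for Mt1 was lost with slide as a block (-0.22, adjusted p = 0.06076), and on slide 1 the difference was -0.10. For Mt2 it was -0.22 ± 0.13 at 6 h (adjusted p = 0.1563), and -0.38 without 6 h replicate 1 (adjusted p = 0.01244), and 0.00 ± 0.13 at 24 h (95% interval -0.27 to 0.27).

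The response of the metallothioneins thus differed by age at both times. At 24 h it was larger at 8 weeks by 0.91 ± 0.13 for Mt1 (adjusted p = 4.86e-05) and by 0.79 ± 0.18 for Mt2 (adjusted p = 0.002441). At 6 h it was larger by 0.77 ± 0.13 for Mt1 (adjusted p = 0.0008628) and by 0.72 ± 0.18 for Mt2 (adjusted p = 0.01248). With slide as a block the Mt2 difference at 6 h was 0.53 (adjusted p = 0.1106) and did not pass. Leaving out 1-week control replicate 2 left these 4 differences between 0.72 and 0.92.

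Markers of stroma, bone and endothelium were also lower in 8-week controls and rose in irradiated 8-week marrow. Of 14 tested markers, 13 were lower and 1 higher in 8-week than in 1-week controls (37.5% and 27.4% of all genes). Their summed signal was 26.37 to 35.04 against 137.5 to 191.4. In 8-week marrow 12 of the 14 rose at 6 h and 13 at 24 h, where 23.9% and 38.3% of all genes rose. The sums reached 41.72 to 60.63 and 97.85 to 116.1. In 1-week marrow 3 rose and 2 fell at 6 h, below the shares of all genes (25.5% and 26.3%). At 24 h 4 rose, where 18.4% of all genes did. The sums were 166.6 to 198.6 at 6 h and 233.4 to 289.5 at 24 h. At 24 h in 1-week marrow the arrays' sums all lay above the controls, where Mt1 and Mt2 differed from controls by 0.00. Summed resident macrophage markers (12 genes) were 57.18 to 68.94, 120.4 to 123.3 and 206.6 to 226.9 at 0, 6 and 24 h at 8 weeks. At 1 week they were 34.09 to 37.83, 23.28 to 27.91 and 70.19 to 72.79. Of 6 adipocyte markers none was higher and 3 were lower in 8-week than in 1-week controls (27.4% and 37.5% of all genes). Their sums were 18.61 to 19.8 against 35.42 to 38.57. In 8-week marrow 4 rose at 6 h and 5 at 24 h (23.9% and 38.3% of all genes), to sums of 26.36 to 29.85 and of 50.03 to 65.61. In 1-week marrow 1 rose at 6 h and 4 at 24 h (25.5% and 18.4% of all genes), with sums of 41.85 to 51.28 and of 59.89 to 75.21. Among the 3 genes most like Mt2 over the 18 arrays were Thbs2 (r = 0.972) and Ctsk (r = 0.971), expressed in connective tissue and in bone-resorbing osteoclasts, after Slc6a8, a creatine transporter (r = 0.976). For Mt1 they were Sat2 (r = 0.961), Ckb (0.96) and Fkbp10 (0.96). The part of these cell types in the metallothionein values was not tested.

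**Figure D4:**
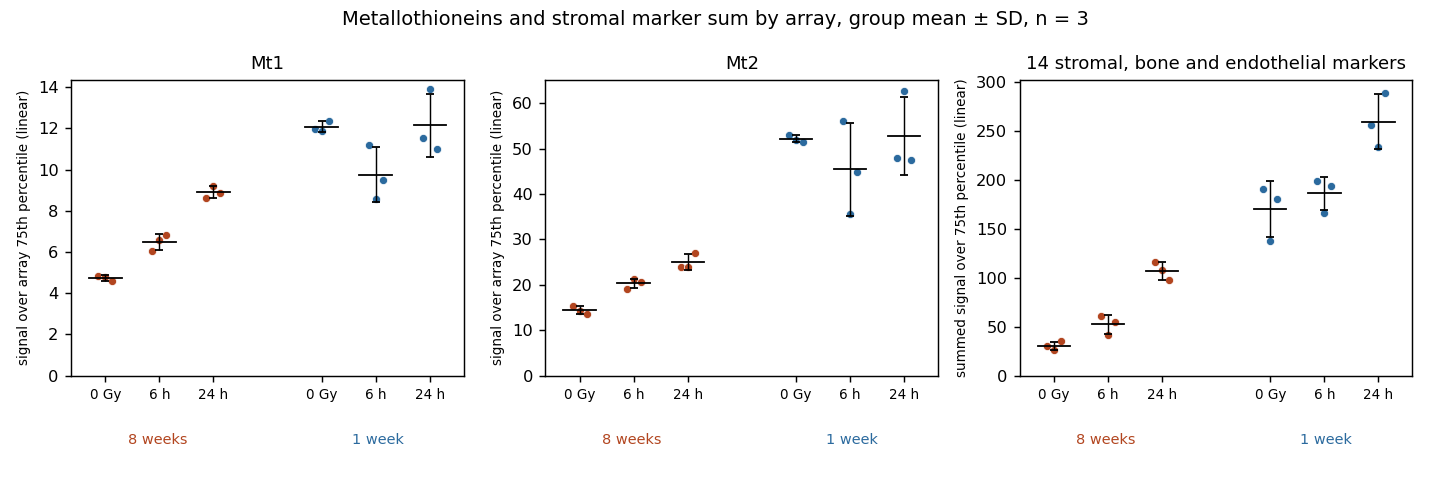
Signal of Mt1 and Mt2 and summed signal of 14 stromal, bone and endothelial markers, each on a linear scale in units of the array's 75th percentile, on every array by group, with the group mean ± SD (n = 3). All 3 panels are lowest in 8-week controls, and at 24 h in 1-week marrow the marker sum (233.4 to 289.5) exceeds its controls (137.5 to 191.4) while Mt1 and Mt2 lie on both sides of theirs.

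Counted over the members, the response was broadest at 24 h in 8-week marrow. There 5 of 8 rose (Sgk1, Dusp1, Ddit4, Mt1 and Mt2) and 2 fell (Fkbp5 and Tsc22d3), where 38.3% of all genes rose and 19.5% fell (57.8% called in all). The groups' arrays did not overlap for 8 of 8, against 69.5% of all genes. The members' median difference was 0.22 and that of all genes 0.12. This count depends on the scaling. Sgk1 and Ddit4 no longer passed with quantile normalisation or with normexp background correction, whereas Klf9 passed as lower with normexp (adjusted p = 0.03765). The fall of Fkbp5 rests on 1 probe. At 6 h in 8-week marrow 3 rose and 1 fell (23.9% and 22.1% of all genes, 46% in all), and 4 of 8 did not overlap with controls (55.3% of all genes). In 1-week marrow 2 rose and 1 fell at 6 h (25.5% and 26.3% of all genes, 51.8% in all), and 4 of 8 did not overlap with controls (55.8%). At 24 h in 1-week marrow Ddit4 alone passed, 1 of 8 where 18.4% of all genes rose and 17.6% fell (36% in all), and 2 of 8 did not overlap (48.1%). In 1-week marrow, and at 6 h in 8-week marrow, these shares lie near or below those of all genes. At 24 h in 1-week marrow 7 of 8 members thus did not pass. The interval of the difference there reached 1.09 for Klf9 and 0.57 for Dusp1.

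Differences between the ages' responses were called for 4 of 8 members at 6 h (Mt1 and Mt2 higher, Tsc22d3 and Ddit4 lower) and for 4 of 8 at 24 h (Mt1 and Mt2 higher, Fkbp5 and Klf9 lower). Among all genes 10.5% were higher and 8.09% lower at 6 h (18.6% in all), and 28.5% higher and 13.5% lower at 24 h (42.1% in all). The medians over members were -0.45 and 0.05, beside 0.01 and 0.11 over all genes. Between 6 h and 24 h, 2 members were higher at 24 h and 3 lower in 8-week marrow (33% and 16.5% of all genes, 49.4% in all), and 5 of 8 did not overlap between the times (57.2%). In 1-week marrow 1 was higher and 2 lower (18.6% and 17.6%, 36.2% in all), and 4 of 8 did not overlap (49.1%). Ddit4 and Tsc22d3 were called lower at 24 h than at 6 h and Mt1 higher at both ages. The 8-week call for Tsc22d3 (-0.24) was lost in 6 of 32 alternatives, among them slide as a block (-0.19, adjusted p = 0.05646) and leaving out 24 h replicate 3 (-0.15, adjusted p = 0.2078), 6 h replicate 1 (-0.22, adjusted p = 0.1027) or 6 h replicate 2 (-0.23, adjusted p = 0.09832). The 1-week call for Mt1 (0.32) was lost with only these groups in the fit (adjusted p = 0.06439), without 6 h replicate 2 (0.23, adjusted p = 0.06617) and without 24 h replicate 2 (0.22, adjusted p = 0.07093).

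**Figure D5:**
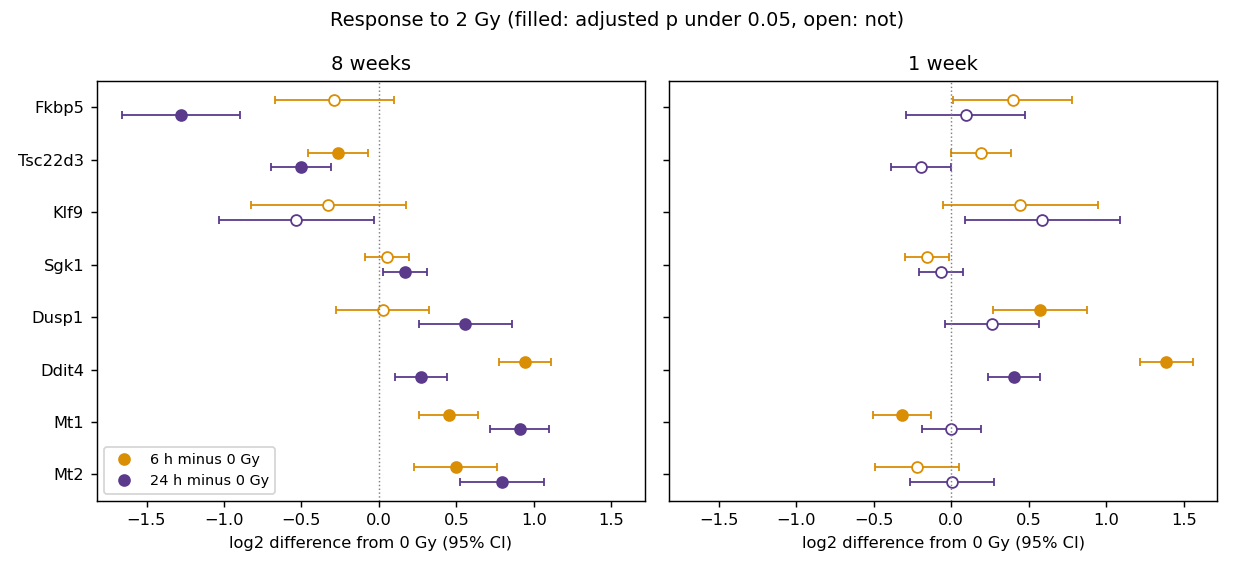
Log2 difference from unirradiated marrow of the same age at 6 h and 24 h after 2 Gy, with 95% confidence intervals from the fit (n = 3 arrays per group), at 8 weeks and 1 week; filled points have an adjusted p under 0.05. At 8 weeks Fkbp5 lies at -1.28 and Mt1 at 0.91 at 24 h, and at 1 week Ddit4 is the only filled point at 24 h.

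Over the 18 arrays Tsc22d3 ran opposite to Mt2 (Pearson r = -0.968) and to Mt1 (-0.909), and along with Sgk1 (0.876), Klf9 (0.824) and Fkbp5 (0.728). Once each group's mean was removed, Tsc22d3 and Mt2 had r of -0.287, whereas Mt1 and Mt2 kept r of 0.906 (0.958 before). Dusp1 and Ddit4 had r of 0.119. These correlations are descriptions over arrays that share scaling and, within a group, age and treatment. The genes most like Tsc22d3 were Klra7, a receptor of natural killer cells (r = 0.985), Rspo1 (0.982) and Calhm2 (0.981). Those most like Sgk1 were Degs2 (0.981), Rnaset2b (0.978) and Spn, a leukocyte sialoglycoprotein (0.977), those most like Fkbp5 were Dclre1c, a DNA repair nuclease (0.933), Vezf1 (0.931) and Map3k2 (0.93), and those most like Klf9 were Chst10 (0.921), Pdzd8 (0.889) and P2ry10 (0.882). Dusp1 had no gene above r of 0.849 (Oit3).

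The receptor itself and the enzyme that regenerates its hormone were also higher in adult marrow. Nr3c1, the glucocorticoid receptor, averaged 2.50 ± 0.03 on 8-week controls and 1.55 ± 0.15 on 1-week controls (SD, n = 3 each), a difference of 0.94 ± 0.08 (1.921-fold, adjusted p = 3.543e-08), and of 0.87 without 1-week control replicate 2. After irradiation Nr3c1 fell at 24 h in 8-week marrow by 0.34 ± 0.08 (adjusted p = 0.001389) and rose at 6 h in 1-week marrow by 0.43 ± 0.08 (adjusted p = 0.000243). Its responses differed between ages by -0.37 at 6 h (adjusted p = 0.02848) and by -0.55 at 24 h (adjusted p = 0.00107). Without that replicate the 6 h difference was -0.30 and did not pass (adjusted p = 0.07025), and the 24 h difference was -0.47 (adjusted p = 0.002726). Hsd11b1, which regenerates active glucocorticoid inside cells, averaged 3.13 ± 0.08 on 8-week controls and 2.20 ± 0.15 on 1-week controls. Hsd11b1 rose in all 4 irradiation comparisons, by 0.72 to 0.93, and its responses did not pass as different between ages (adjusted p = 0.8029 at 6 h and 0.3176 at 24 h).

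Of 11 tested genes of the receptor's chaperones, coregulators and hormone handling, 5 were higher and 3 lower in 8-week than in 1-week controls, beside the 27.4% and 37.5% of all genes. Without 1-week control replicate 2, 4 were higher and 3 lower. Among them Ncoa1, a coactivator, was higher by 1.02 ± 0.09 (adjusted p = 5.341e-08). At 6 h 3 rose and 3 fell at 8 weeks (23.9% and 22.1% of all genes), and 4 rose and 5 fell at 1 week (25.5% and 26.3%). Fkbp4, the co-chaperone that competes with Fkbp5, fell at 6 h by 0.74 ± 0.07 at 8 weeks (adjusted p = 1.453e-06) and by 1.01 ± 0.07 at 1 week (adjusted p = 3.328e-08). Nr3c2 and Hsd11b2 were too dim to test.

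A further list of 21 tested genes known to be induced by glucocorticoids was mostly higher in adult marrow too, with 17 higher and 3 lower at a median of 0.76, beside -0.09 over all genes. Among all genes 27.4% were higher and 37.5% lower. Without 1-week control replicate 2, 16 were higher and 3 lower. Cd163, a macrophage scavenger receptor, was higher by 3.25 ± 0.15 (9.503-fold), Lcn2, a neutrophil granule protein, by 1.70 ± 0.11, and Bcl6, a repressor in germinal-centre B cells, by 1.33 ± 0.07. Lcn2 is also one of the late neutrophil markers, 11 of 12 of which were higher in 8-week controls. Of 12 resident macrophage markers, 10 were higher and 1 lower in 8-week controls. At 6 h 12 of the 21 rose and 1 fell in 8-week marrow (23.9% and 22.1% of all genes). In 1-week marrow 14 rose and 3 fell at 6 h (25.5% and 26.3%), or 13 and 1 without 1-week control replicate 2. At 24 h 14 of the 21 rose and 3 fell in 8-week marrow (38.3% and 19.5% of all genes). In 1-week marrow 12 rose and 1 fell at 24 h (18.4% and 17.6%), or 11 and 2 without 1-week control replicate 2. Late neutrophil markers rose at 24 h for 12 of 12 genes at both ages. Resident macrophage markers rose at 24 h for 12 of 12 at 8 weeks and 11 of 12 at 1 week (9 without 1-week control replicate 2). The part of these cells in the counts of the list was not tested. Lpin1, a phosphatidate phosphatase, rose at 6 h by 1.37 ± 0.11 at 8 weeks and 1.17 ± 0.11 at 1 week. Il7r, the interleukin 7 receptor of lymphoid precursors, was among the genes that fell, with a difference of -2.13 ± 0.10 at 24 h at 8 weeks and of -1.81 ± 0.10 at 24 h at 1 week, where B-cell precursor markers fell as well.

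Per1, a clock gene that also responds to glucocorticoids, was higher by 1.07 ± 0.18 in 8-week than in 1-week controls (adjusted p = 5.926e-05). In 8-week marrow it was -0.44 ± 0.18 at 6 h (adjusted p = 0.05185) and fell by 0.75 ± 0.18 at 24 h (adjusted p = 0.001906). In 1-week marrow it rose by 0.90 ± 0.18 at 6 h (adjusted p = 5e-04) and was 0.04 ± 0.18 at 24 h (adjusted p = 0.8719). The responses differed by -1.34 ± 0.25 at 6 h (adjusted p = 0.002225) and by -0.79 ± 0.25 at 24 h (adjusted p = 0.01927). These Per1 calls were the same without 1-week control replicate 2. The hour of the day of collection is not given in the sources used here. Cebpd, a transcription factor of the acute-phase response, rose in all 4 irradiation comparisons, by 0.46 to 0.79, and was higher by 1.14 ± 0.09 in 8-week controls.

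Genes of zinc handling leaned the same way as Mt1 and Mt2 for age and at 24 h in 8-week marrow, but not as a block. Of 18 tested, 3 were higher and 9 lower in 8-week than in 1-week controls, at a median of -0.24, where 27.4% of all genes were higher and 37.5% lower at a median of -0.09. The counts were 2 and 8 without 1-week control replicate 2. Mtf1, the zinc-sensing activator of metallothioneins, averaged 0.04 ± 0.01 on 8-week controls and 0.54 ± 0.09 on 1-week controls (adjusted p = 2.994e-05), and it did not pass in any of the 4 irradiation comparisons. Slc30a1, a zinc exporter and Mtf1 target, was lower by 0.59 ± 0.09 in 8-week controls (adjusted p = 1.874e-05). It rose at both ages and times, by 0.41 ± 0.09 and 0.28 ± 0.09 at 8 weeks (6 h and 24 h) and by 0.43 ± 0.09 and 0.38 ± 0.09 at 1 week. Its responses did not pass as different between ages (adjusted p = 0.9312 at 6 h and 0.569 at 24 h). Of the 18, 4 rose and 3 fell at 6 h in 8-week marrow (23.9% and 22.1% of all genes). In 1-week marrow 3 rose and 5 fell at 6 h (25.5% and 26.3%), and 3 rose and 2 fell at 24 h (18.4% and 17.6%). Without 1-week control replicate 2 these 1-week counts were 4 and 6, and 2 and 2. At 24 h in 8-week marrow 10 of the 18 rose and 3 fell, beside 38.3% and 19.5% of all genes. The median there was 0.28, beside 0.12 over all genes. Slc39a1, a zinc importer, rose by 0.54 ± 0.05, and Slc30a5, a zinc transporter of the secretory pathway, fell by 0.62 ± 0.06. Mt3, the brain-type metallothionein, did not pass for age (-0.01 ± 0.07, adjusted p = 0.9252) or at 24 h at 8 weeks (0.00 ± 0.07, adjusted p = 0.9691), and was named here after its values were seen.

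Acute-phase genes, the inflammatory programme that shares inducers with the metallothioneins, were represented by 9 tested genes, none of which fell in the 4 irradiation comparisons. At 8 weeks 8 rose at 6 h and 6 at 24 h, where 23.9% and 38.3% of all genes rose. At 1 week 6 rose at 6 h and 4 at 24 h, where 25.5% and 18.4% of all genes rose, and Cp, Socs3 and Stat3, named here after their values were seen, passed at neither time. Without 1-week control replicate 2, 5 rose at 24 h, with Orm2 at 0.35 (adjusted p = 0.03413) in place of 0.26 (adjusted p = 0.09192). Orm2, an acid glycoprotein, rose at 6 h by 0.78 ± 0.12 at 8 weeks and 1.31 ± 0.12 at 1 week, and was 5.579-fold higher in 8-week than in 1-week controls. Socs3, the feedback inhibitor of interleukin 6 signalling, rose at 24 h at 8 weeks by 1.27 ± 0.09 and, like Mt1 and Mt2, was lower in 8-week than in 1-week controls (-1.05 ± 0.09, adjusted p = 4.58e-08). Most of the list went the other way for age. Of the 9, 6 were higher and 2 lower in 8-week controls (27.4% and 37.5% of all genes). Their median was 0.75, beside -0.09 over all genes. Saa2, Saa3 and Il6 were too dim to test.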

How the data were processed

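One-colour intensity per spot was measured on 18 arrays (3 in each of 6 groups, grouped by the sample titles). The deposited array files hold background-subtracted intensity (gProcessedSignal) from Agilent Feature Extraction, version 9.5.1.1 per the file headers and 11.5.1 per the submitters' processing notes. The deposited series matrix holds log2 values; recomputing them from the array files gave r of 1, and they served as an alternative. Flags per spot in the deposited files mark signal well above background, outliers and saturation.

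Control spots and outlier-flagged spots were left out, log2 intensity was averaged per probe, and each array's 75th percentile over non-control probes (461.5 to 727.6 before log2) was subtracted. Accessions named 24844 of 41174 probes through RefSeq, and 16330 stayed unnamed; the brightest probe stood for a gene. Of 17177 genes, 11884 were tested (every array of some group well above background), 5284 were too dim and 9 had an outlier spot left out. Limma 3.58.1 in R 4.3.3 fitted 6 group means with trended empirical Bayes variances (12 residual and 4.33 prior degrees of freedom) in 9 comparisons, two-sided. The step was tested on simulated data. The number of arrays limits precision. The series design gives 3 mice per group.

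Members and lists were chosen with earlier results of these data known. From each list the text names the 3 genes with the smallest adjusted p per comparison, in part, and always Nr3c1, Hsd11b1, Per1, Cebpd, Mtf1 and Slc30a1. Likeness is Pearson's r over 18 arrays. Deviations from the group means of same-numbered replicates had a median r of -0.0145 (45 pairs, r of -0.267 to 0.319, 9 pairs over 0.1). Of the 18 arrays, 9 were most like an array of their own number in another group. The main fit used no pairing. The alternatives were other scalings, background correction, dim filters, outlier spots, probes, slide and replicate blocks, variance models, the groups in the fit and leaving out each array.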

Additional observations from a re-analysis of the deposited data

Results flagged for a closer look

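The response to 2 Gy differed between 8 weeks and 1 week for 4 of 8 members at 6 h, where 18.6% of all genes were called, and for 4 of 8 at 24 h, where 42.1% were, by the test of the difference itself in limma with p adjusted over all genes. At 6 h the response (8 weeks minus 1 week) differed by 0.77 for Mt1, 0.72 for Mt2, -0.45 for Tsc22d3 and -0.45 for Ddit4. At 24 h it differed by 0.91 for Mt1, 0.79 for Mt2, -1.37 for Fkbp5 and -1.12 for Klf9. The Fkbp5 and Klf9 differences stand on 1 probe each, since their other probes gave -0.25, -0.15 and 0.19. The 6 h call for Tsc22d3 was lost on its other probe (adjusted p = 0.05174) and without 1-week control replicate 3, 1-week 6 h replicate 2 or 8-week control replicate 1 (adjusted p of 0.05524, 0.0574 and 0.06567). The 6 h call for Mt2 was lost with slide as a block (0.53, adjusted p = 0.1106).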

How the results depend on the processing

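Each single-gene result was recomputed under up to 33 alternatives. Of those values 2152 kept their side of the threshold, 62 newly passed, 38 no longer passed and 7 reversed. A reversal here is a change of sign where the main or the recomputed value passed. Changes of sign where neither passed are counted among the 2152. Dusp1 at 6 h in 8-week marrow, for example, was 0.024 and became -0.088 with slide as a block. Reversals came only from other probes: the second Fkbp5 probe gave -0.387 (1-week 6 h against control), 0.566 (1-week 24 h against 6 h) and 0.241 (8-week 24 h against 6 h), the third Fkbp5 probe 0.138 (8-week 24 h against control) and 0.15 (8-week 24 h against 6 h), and the second Klf9 probe 0.191 (24 h response, 8 weeks minus 1 week) and -0.864 (1-week 24 h against 6 h). The cause was not tested. Calls that held under all 31 alternatives include the age differences of Mt1, Mt2, Sgk1 and Ddit4, the 8-week rises of Mt1 and Mt2 and the 6 h rise of Ddit4 at both ages.

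The number of members called at 1 week and 6 h was 3, and 5 with the mean over all probes of a gene. At 1 week and 24 h it was 1, and 2 with only the groups of the comparison in the fit. Leaving out each array in turn gave 3 to 5 and 1 to 2 members in these comparisons. Without 1-week control replicate 2 the counts were 5 and 2. The same was done for the other lists, a choice made after the data were seen. With slide as a block 1370 genes had a 6 h response that differed by age, in place of 2210. With the replicate block, which the main fit did not use, 5 members passed for the 6 h response difference in place of 4, 5 in place of 4 for the 24 h response difference (Tsc22d3 at -0.308, adjusted p = 0.03116), and 4 in place of 3 at 1 week and 6 h. The planned normexp on gMeanSignal was not run, since the files used hold gMedianSignal, which took its place after the data were seen. Klf9 was near background in 1-week marrow, which limits its values.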
